A study of Mus musculus with 4 samples.

Results

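The genes described here are the 8 inhibitors that carry a SOCS box (Socs1 to Socs7 and Cish) and the transcription factors Stat5a and Stat5b. They were found by symbol among the mouse Ensembl genes of the count tables, and each of the 10 symbols matched 1 of the 37140 genes listed for all libraries. In blood stem cells, cytokines bind receptors that carry Jak kinases, and the kinases phosphorylate Stat5, which moves to the nucleus and switches on target genes. Cish and several Socs genes are among these targets. Their proteins then bind the receptor, the kinase or other signaling proteins and dampen the signal, partly by recruiting a ubiquitin ligase through the SOCS box, so that the pathway limits itself.

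The study asked which genes change when the transcriptional repressor Gfi1b is lost from hematopoietic stem cells (HSCs). RNA of 2 populations sorted from C57Bl6 bone marrow was sequenced with 1 library per genotype, which gives 4 libraries. HSCs were gated as CD150+ Cd48- cells within the Lin- Sca1+ cKit+ compartment, and the second gate is labelled HSCs with the words CD41low and CD9low, each from Gfi1b WT and Gfi1b KO mice. The sources differ on whether the first gate was also set to high CD41 and CD9, so whether the second is a subset of it is not settled here. Sample titles write Gfi1 where the genotype labels write Gfi1b, and the genotype labels are followed. According to the methods, KO mice were Rosa-Cre Gfi1b fl/fl and controls were Rosa-Cre Gfi1b wt/fl, all were given tamoxifen, and the marrow of several mice per genotype was pooled before sorting. As described, both populations of a genotype came from such a pool, so their libraries may share animals. The description deposited with the data instead speaks of flox/flox mice with and without Cre. Cre was expressed from the ubiquitous Rosa26 locus, so deletion was not restricted to HSCs. The ages of the mice are not given in the sources used here. A difference between 2 libraries has no replicate check, and the intervals below cover counting error only.

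Counts on genes summed to 50781007 in WT and 41690708 in KO HSCs, and to 12732079 and 19123185 in the CD41low/CD9low gate. A gene with 3 counts had 0.059 to 0.236 CPM (counts scaled to 1000000 counts on genes), depending on the library. The whole-gene count of Gfi1b was 9256 in WT and 49910 in KO HSCs, and 611 and 9741 in CD41low/CD9low HSCs. A whole-gene count does not separate the floxed exons from the exons left in place, so it does not check the deletion. All 9 HSC markers, among them Kit and Procr, were counted in every library, and their summed level ran from 1847 to 2386 CPM. Cd48, which the gate excludes, was counted at 1.26 to 7.75 CPM, and the CD41 gene Itga2b was at 547 and 691 CPM in HSCs against 136 and 205 CPM in CD41low/CD9low HSCs (WT and KO in each).

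The promoters of Cish and Socs3 are shown because they held a match to the binding element of Stat proteins, through which cytokines induce these inhibitors. RefSeq promoters of GRCm38.p6 (250 bases before to 50 after the start of a gene) were given for 6 of the 10 genes, Cish, Socs1, Socs3, Socs4, Stat5a and Stat5b, 8 promoters in all. The element searched was TTCNNNGAA, which reads the same on both strands and which 8.3% of all 32851 promoters hold. In the lines below, printed 5′ to 3′ on the strand of the gene, capitals mark the matches.
Cish: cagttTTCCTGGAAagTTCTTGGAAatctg
Socs3: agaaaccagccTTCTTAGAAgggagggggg
The stretch of Cish lies at chr9:107296654-107296683 on the forward strand. Its matches begin at bases 1 and 12 from the RefSeq start of transcription, at 107296659. That of Socs3 lies at chr11:117969502-117969531 on the reverse strand, with its match beginning 154 bases before the RefSeq start, at 117969366. The GENCODE coordinates of these genes begin further upstream, at 107296026 for Cish and 117970047 for Socs3. The core AATC of Gfi1b sites, searched on both strands, occurred 3 times in the Cish promoter, and 1 of these overlapped a Stat match. The promoters of Socs3 and Socs4 held 0 and that of Socs1 held 1. A promoter of Stat5a held 2 and a promoter of Stat5b held 3, with 0 in the other promoter of each. The promoters of Socs1, Socs4, Stat5a and Stat5b had no match to the Stat element in this window. AATC is common, with a match in 73.1% of all promoters.

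Stat5a and Stat5b were by far the most abundant of the 10 genes in every library. Levels of different genes are compared here as CPM per kb of exon. Stat5b (ENSMUSG00000020919, chr11:100780731-100850724, GRCm38, reverse strand) was the higher of the pair per kb. Its levels were 37.2 in WT HSCs, 39.3 in KO HSCs, 43.5 in WT CD41low/CD9low HSCs and 44.1 in KO CD41low/CD9low HSCs. Stat5a (ENSMUSG00000004043, chr11:100859351-100885169, forward strand), its neighbor and paralog, was at 33.5, 26.2, 35.6 and 36.1 in the same order. The counting intervals of the paralogs did not overlap in any library, but they do not cover the choice of exon length. In CPM, Stat5a was the higher in WT HSCs (239 against 206) and Stat5b in KO HSCs (218 against 187). Stat5a was also the higher in CPM in WT (254 against 241) and KO CD41low/CD9low HSCs (257 against 244). Of the stretches of 100 bases in their transcripts, 3.44% of those of Stat5a and 4.79% of those of Stat5b also occur in the paralog. Stretches of other lengths were not compared, so the share of reads that could not be told apart was not measured. Stat5a also shares 72 exon bases with Stat3 on the opposite strand, and the strand setting of the counting is not given in the sources used here.

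The inhibitors were expressed at lower levels. Socs4 (chr14:47276931-47296102) and Socs7 (chr11:97362551-97398542), members whose targets are less well known, came next after the Stat5 genes in every library. Socs4 was at 11.2, 15.8, 10.3 and 12.3 CPM per kb in WT HSCs, KO HSCs, WT CD41low/CD9low HSCs and KO CD41low/CD9low HSCs. For Socs7 the levels were 9.58, 10.5, 11.3 and 10.8. Socs5 (chr17:87107679-87137839) and Socs6, which have been linked to receptor tyrosine kinases, ran from 6.25 to 7.7 and from 3.41 to 5.55. Cish, Socs1 and Socs2, feedback inhibitors induced by cytokines, ran from 1.64 to 6.05 CPM per kb, with Cish above Socs1 except in KO HSCs, where Socs1 was at 2.75 and Cish at 2.74. Neighbors whose counting intervals overlapped were Socs7 and Socs3 as well as Socs1 and Socs2 in WT HSCs, and Socs1, Cish and Socs2 in succession in KO HSCs. In WT CD41low/CD9low HSCs they were Socs7 and Socs4, Cish and Socs1, and Socs1 and Socs6, and in the KO library Socs6 and Socs1. The order also depends on exon length, which was 9.53 kb for Socs2, 6.42 kb for Cish and 2.91 kb for Socs1. In CPM, KO HSCs had 25.2 for Socs2, 17.6 for Cish and 8.01 for Socs1.

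**Figure D1:**
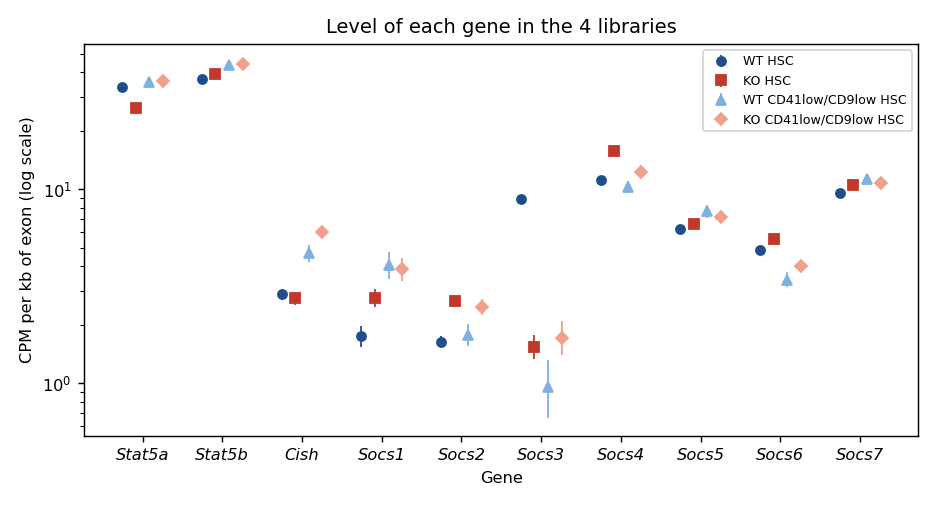
Level of the 10 genes in each of the 4 libraries, as CPM per kb of exon on a log scale, with bars for the exact 95% counting interval. Stat5a and Stat5b lie at 26.2 to 44.1, and Socs3 is at 8.88 in WT HSCs against 0.951 to 1.72 in the other 3 libraries.

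Socs3 was the gene with the widest range. It encodes the inhibitor of gp130 and G-CSF receptor signaling, binds receptor and Jak kinase, and is induced rapidly by cytokines. Socs3 (ENSMUSG00000053113, chr11:117966079-117970047, reverse strand) was counted 1304 times in WT HSCs, 186 times in KO HSCs, 35 times in WT CD41low/CD9low HSCs and 95 times in KO CD41low/CD9low HSCs. These counts correspond to 25.7, 4.46, 2.75 and 4.97 CPM. The WT HSC library was high and the other 3 were low. Per kb of exon, its 8.88 CPM in WT HSCs lay between Socs7 and Socs5, and in each of the other libraries it had the lowest level of the 10 genes.

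In the KO library of HSCs, Socs3 was 5.68-fold lower (95% interval 4.87 to 6.66), a KO/WT ratio of 0.176. It was the only member below 0.6 in HSCs, and 10.3% of the 15910 genes that reached 10 counts in 1 library of the pair or both were below this cutoff, which is that of the study. Socs1 and Socs2 were higher in KO HSCs and passed the cutoff of 1.5, as 14.1% of all genes did. Socs1 (ENSMUSG00000038037, chr16:10782240-10785536), which inhibits Jak kinases directly and restrains interferon signaling, was at 5.08 CPM in WT and 8.01 CPM in KO HSCs. Its ratio was 1.6 (1.35 to 1.89). Socs2 (ENSMUSG00000020027, chr10:95385362-95417180), a Stat5 target that restrains growth hormone signaling, was at 15.7 and 25.2 CPM, with a ratio of 1.63 (1.49 to 1.79). With 3 of 10 members past a cutoff, the share was close to that of all genes. In HSCs the ratios moved with exon length, and after a correction for it the ratio of Socs2 was 1.45, which is under the cutoff, whereas that of Socs1 was 1.7 and that of Socs3 0.191.

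The remaining 7 members lay between the cutoffs in HSCs. Socs4 had the largest ratio among them, with 76.9 CPM in WT and 108 CPM in KO HSCs and a ratio of 1.43 (1.37 to 1.49). Stat5a was lower in the KO library, with 239 and 187 CPM and a ratio of 0.792 (0.769 to 0.815). Stat5b showed no such decrease, since it was at 206 and 218 CPM with a ratio of 1.07 (1.04 to 1.1). Cish, the inhibitor most closely tied to Stat5 activity, was at 18.5 CPM in WT and 17.6 CPM in KO HSCs, and the interval of its ratio of 0.963 included 1 (0.873 to 1.06). Socs5, Socs6 and Socs7 had ratios of 1.07, 1.16 and 1.11. After the correction for exon length these became 1.01, 1.01 and 1.03, and that of Stat5a became 0.741. The median log2 ratio was 0.12 over the 10 members, against -0.001 over all genes.

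**Figure D2:**
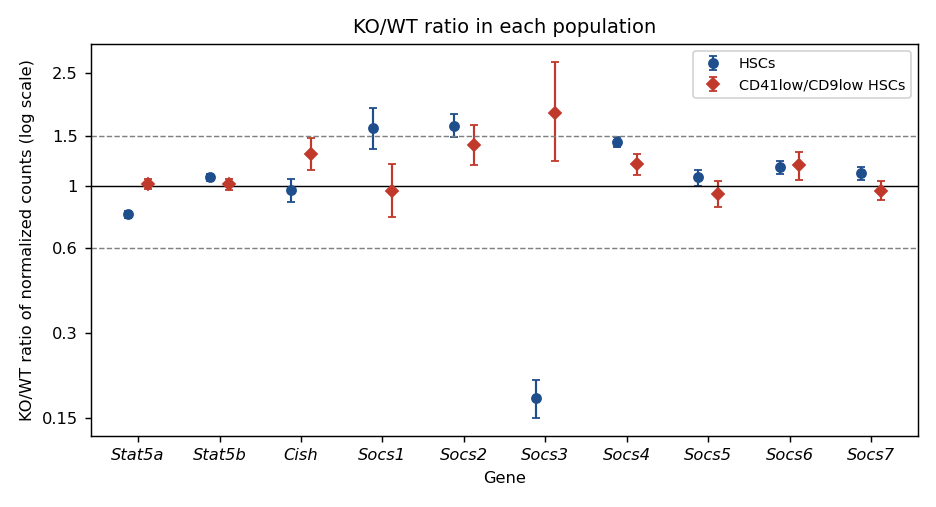
KO/WT ratio of normalized counts for each gene in HSCs (circles) and CD41low/CD9low HSCs (diamonds) on a log scale, 1 library per genotype, with the exact 95% counting interval. Dashed lines mark 1.5 and 0.6, and Socs3 lies at 0.176 in HSCs and at 1.81 in CD41low/CD9low HSCs.

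In CD41low/CD9low HSCs, Socs3 was on the other side. At 2.75 CPM in the WT and 4.97 CPM in the KO library, its ratio was 1.81 (1.22 to 2.75), and it was the 1 member above 1.5, a cutoff that 13.5% of all 14844 genes passed. This ratio rests on 35 and 95 counts. None of the 10 members was below 0.6, against 12.0% of all genes. Cish (ENSMUSG00000032578, chr9:107296026-107302784) was at 30.1 CPM in WT and 38.9 CPM in KO CD41low/CD9low HSCs, a ratio of 1.29 (1.14 to 1.47). Socs2 was again higher in the KO library, at 17 and 23.5 CPM with a ratio of 1.39 (1.18 to 1.64). Socs4 and Socs6 had ratios of 1.19 (1.09 to 1.29) and 1.18 (1.05 to 1.32).

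For the other 5 members the interval included 1 in this population. Socs1 was at 11.8 and 11.3 CPM with a ratio of 0.96 (0.776 to 1.19). Socs5 and Socs7 had ratios of 0.934 and 0.96. Stat5a and Stat5b had 254 and 257 CPM and 241 and 244 CPM in WT and KO, and both ratios were 1.01 with intervals from 0.969 to 1.06 at the widest. The median log2 ratio was 0.12 over the members and 0.002 over all genes. Markers of other cell types differed between these libraries. The summed level of 9 neutrophil and myeloid markers was 1124 CPM in WT and 281.1 CPM in KO, all 9 with ratios below 0.6, and that of 8 erythroid markers was 132.5 and 18.98 CPM, with 6 of the 7 that passed the filter below 0.6. In HSCs the same sums were 450.5 and 539.1 CPM for the neutrophil list and 42.75 and 46.87 CPM for the erythroid list. Behind the latter, 4 of 8 erythroid markers were above 1.5 in HSCs, all of them globin or heme synthesis genes, and 1, Klf1, was below 0.6. Of the neutrophil list, 1 of 9 was above 1.5 and 0 were below 0.6. The defining neutrophil markers were counted in every library, and 1 gene of the erythroid list was at 0, in KO CD41low/CD9low HSCs. Their part in the differences of the Socs genes and Cish was not tested, and fewer cells of a type and less RNA per cell cannot be told apart in such libraries.

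Socs2, Socs4 and Socs6 were the members whose KO/WT interval lay above 1 in both populations, although for Socs6 the ratio in HSCs was 1.01 after the correction for exon length. Within 1 population such intervals were common, since they made up 35.6% over all genes for HSCs and 31.1% for the CD41low/CD9low gate. The share of all genes with intervals above 1 in both populations was not computed. Socs3 was the single member with intervals on opposite sides of 1. The share of all genes with such a contrast was not computed. Intervals below 1 made up 33.7% over all genes for HSCs and 30.4% for the CD41low/CD9low gate. The receptors Csf2rb2 and Epor, described below, also had intervals on opposite sides of 1. On the log2 scale the ratios of Socs3 were -2.51 for HSCs and 0.86 for the CD41low/CD9low gate. Their difference of 3.36 could not be tested with 1 library per group.

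The level of Socs3 in WT HSCs also stood apart across populations. Within WT, it was 9.77-fold higher in HSCs than in CD41low/CD9low HSCs (95% interval 6.99 to 14.1), after scaling all 4 libraries together. Among WT libraries 19.7% of 15636 genes had a CD41low/CD9low over HSC ratio below 0.6, and Socs3 was the 1 member below it. Among KO libraries it was 20.4% of 15419 genes and 0 members. Within KO the CD41low/CD9low over HSC ratio of Socs3 was 1.07 (0.824 to 1.37). Above 1.5, where 19.2% of all genes lay in WT as well as in KO, the members were Socs1 and Cish in WT and Cish in KO. Cish was at 18.5 and 17.6 CPM in HSCs and at 30.1 and 38.9 CPM in CD41low/CD9low HSCs, and the CD41low/CD9low over HSC ratios were 1.56 (1.38 to 1.76) in WT and 2.12 (1.91 to 2.35) in KO. For Socs1 the ratio was 2.22 (1.8 to 2.72) in WT and 1.35 (1.13 to 1.61) in KO. Socs6 was lower in CD41low/CD9low HSCs, with ratios of 0.673 (0.61 to 0.741) and 0.691 (0.639 to 0.747) that did not pass the cutoff. Stat5a and Stat5b lay between the cutoffs, with ratios of 1.01 and 1.12 in WT and 1.32 and 1.07 in KO. The populations were counted on different annotation releases and at different depths, which cannot be told apart from the populations themselves.

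Immediate early genes, which cells transcribe within minutes of a stimulus, were lower in KO than in WT HSCs, as Socs3 was. The summed level of 14 such genes was 4806 CPM in WT HSCs, 1674 CPM in KO HSCs, 513.5 CPM in WT CD41low/CD9low HSCs and 470.6 CPM in KO CD41low/CD9low HSCs. In HSCs, 13 of the 14 had KO/WT ratios below 0.6, against 10.3% of all genes, and the 14 ranged from 0.113 for Atf3 to 0.659 for Ier3. The Socs3 ratio of 0.176 fell within that range, with 1 gene below it and 13 above. In CD41low/CD9low HSCs the Socs3 ratio of 1.81 (1.22 to 2.75) was above those of all 11 early genes that passed the filter. These ran from 0.355 for Nr4a1 to 1.6 for Ier3 (1.36 to 1.88), with 8 below 1 and 3 above it. The intervals of Socs3 and Ier3 overlapped. There Egr2, Egr3 and Atf3 were at 0 in the WT library. Their part in the difference in Socs3 was not tested. In the 3 libraries other than WT HSCs, Socs3 was at 2.75 to 4.97 CPM.

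**Figure D3:**
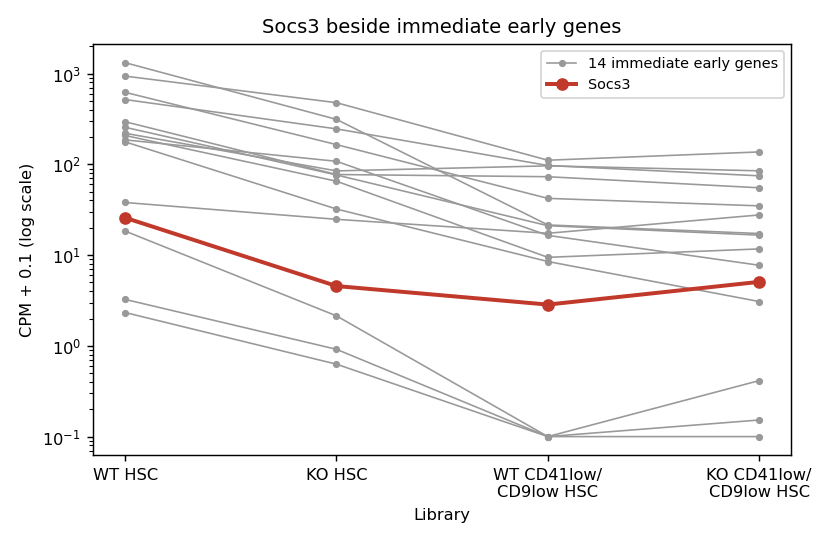
CPM + 0.1 on a log scale for Socs3 (red) and 14 immediate early genes (grey) in the 4 libraries, with lines joining the values of a gene. Socs3 goes from 25.7 CPM in WT HSCs to 4.46, 2.75 and 4.97 CPM in the other libraries, and the summed level of the early genes goes from 4806 to 1674, 513.5 and 470.6 CPM.

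The genes with the profile most like that of Socs3 over the 4 libraries were Mest, Tm4sf1 and Igkv4-72, at Euclidean distances of 0.457, 0.509 and 0.599 between centered log2(CPM + 0.5) values, among the 13305 genes that reached 50 counts in a library. All 3 were weakly expressed outside WT HSCs. Mest, an imprinted gene of the mesoderm, was at 3.98 CPM in WT HSCs, 0.672 CPM in KO HSCs, 0 in WT CD41low/CD9low HSCs and 0.471 CPM in KO CD41low/CD9low HSCs. Tm4sf1 was at 2.46, 0.336, 0.0785 and 0.366 CPM. Igkv4-72, an immunoglobulin light chain segment, was counted 102 times in WT HSCs and 0 times elsewhere. For Socs1, which had the next widest range, the closest profiles were those of Usp53, Arid5a and Zfp108, at distances of 0.032, 0.044 and 0.068. Arid5a was at 25.2, 39.7, 56.2 and 52.9 CPM, in the same order as the 5.08, 8.01, 11.8 and 11.3 CPM of Socs1. With 4 libraries, many genes can have a like profile.

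No member passed a test in which the populations served as replicates of the genotype effect. Since the libraries of a genotype may share pooled animals, its p-values do not cover the variation between mice. That fit used all 4 libraries, had a term for the population and kept 1 residual degree of freedom, and in it 1.62% of 16262 genes were called higher in KO and 1.19% lower at an adjusted p-value under 0.05 by edgeR's quasi-likelihood test. Its prior degrees of freedom were infinite, so the spread of every gene was set to the trend over all genes. With edgeR's filterByExpr filter, added after seeing the data, they were 10.3, and 47 genes were called higher and 17 lower. Of the 10 members 0 passed, and 3 had an unadjusted p-value under 0.05, namely Socs2, Socs3 and Socs4, as 10.8% of all genes did. The log2 KO/WT was 0.58 (SE 0.255) for Socs2, with adjusted p = 0.312 by the quasi-likelihood test of edgeR. For Socs4 it was 0.38 (SE 0.164) with adjusted p = 0.31, and for Socs3 -0.98 (SE 0.404) with adjusted p = 0.251. Over this fit and its alternatives the adjusted p-values ran from 0.251 to 0.978 for Socs3, from 0.312 to 0.812 for Socs2 and from 0.31 to 0.747 for Socs4. In DESeq2 0 members passed, 0 had an unadjusted p-value under 0.05, and the lowest adjusted p-value was 0.747. The average for Socs3 joins ratios of opposite direction.

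The other genes of the pathway were taken by role, beginning with the cytokine receptors. Of 29 receptors that passed the filter in HSCs, 7 were above 1.5 and 3 below 0.6 in KO/WT, and of 28 in CD41low/CD9low HSCs 3 were above and 8 below. The shares over all genes, given above, were 14.1% above and 10.3% below in HSCs and 13.5% and 12.0% in CD41low/CD9low HSCs, and hold for the other lists as well. The median log2 ratios were 0.13 and 0.06, or 0.15 and 0.02 with receptors at 0 in a library set to 3 counts. Il9r and Il21r, receptors for cytokines of lymphocytes, were below 0.6 in both populations. Il21r was at 30.7 and 14 CPM in WT and KO HSCs and at 50.7 and 29.4 CPM in CD41low/CD9low HSCs, with ratios of 0.462 (0.419 to 0.508) and 0.582 (0.519 to 0.653), and the fit over both populations gave a log2 value of -0.96 (adjusted p = 0.00157 in edgeR, and 0.0989 with the filterByExpr filter). Il9r was counted 50 and 7 times and 74 and 5 times.

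Some receptors lay on opposite sides of 1 in the populations, and these differences were not tested. Csf2rb2 was at 7.78 and 44 CPM in WT and KO HSCs, and at 19.6 and 11.1 CPM in the CD41low/CD9low gate, which gave ratios of 5.73 (5.13 to 6.4) and 0.568 (0.47 to 0.684). It is nearly identical to Csf2rb, so the counts of both are uncertain. Csf2rb, the shared receptor chain for IL-3, IL-5 and GM-CSF, was the 1 receptor called higher in the fit to all libraries (log2 0.64, adjusted p = 0.0438 in edgeR, and 0.311 with the filterByExpr filter). Epor, the erythropoietin receptor, which was also in the erythroid list, had ratios of 0.655 (0.591 to 0.726) and 2.79 (2.03 to 3.89). These 3 receptors, and the genes named in the next paragraphs other than Jak2, Stat3, Dok2, Bcl6, Pim1 and Bcl2l1, were chosen after their values were seen.

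Most ligands were scarcely counted, with 10 and 9 of 20 passing the filter. In HSCs the counts of Il6 were 26 for WT and 107 for KO, a ratio of 5.08 (3.28 to 8.13), and Il15 and Tslp had ratios of 1.66 and 1.84, while Il4 was lower at 0.392. In CD41low/CD9low HSCs Lif had 0 counts in WT and 31 in KO, and it was the 1 ligand above 1.5. In HSCs the counts of Lif were 44 and 26, and Il6 had 0 counts in both CD41low/CD9low libraries. The gp130 ligands Clcf1 and Ctf1 had ratios of 0.863 and 0.768 in HSCs and 1.13 and 1.12 in CD41low/CD9low HSCs.

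Jak kinases and the other Stat genes mostly lay between the cutoffs. All 9 did so in HSCs, and 2 of 9, Tyk2 and Stat2, which serve interferon signaling, were above 1.5 in CD41low/CD9low HSCs, with ratios of 1.58 (1.45 to 1.71) and 1.53 (1.4 to 1.69). Jak2, a kinase that many cytokine receptors use, was at 240 and 224 CPM in WT and KO HSCs and at 144 and 158 CPM in CD41low/CD9low HSCs. Stat3, the main Stat of gp130 signaling, was at 306 and 311 CPM and at 300 and 360 CPM. Among 16 other inhibitors, 2 were above 1.5 and 1 below 0.6 in HSCs, and 1 was above and 1 below in CD41low/CD9low HSCs. Dok2, an adaptor that dampens tyrosine kinase signaling, was lower in both populations. Its ratios were 0.426 (0.396 to 0.457) and 0.571 (0.51 to 0.638), and it was lower in the fit to all libraries (log2 -1.03, adjusted p = 1.52e-05 in edgeR, with 0.0429 as the highest value over the 6 settings). Cbl, a ubiquitin ligase for activated receptors and kinases, was called higher in that fit (log2 0.73, adjusted p = 0.000915 in edgeR, and 0.127 with the filterByExpr filter), with a ratio of 2.03 in HSCs. Sh2b3, an adaptor that restrains Jak2, was above 1.5 in HSCs at 1.67 (1.58 to 1.76), and Pias4 had a ratio of 1.85 (1.61 to 2.14) in CD41low/CD9low HSCs.

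The partners with which SOCS boxes form a ubiquitin ligase, among them Cul5, Elob and Eloc, all lay between the cutoffs in both populations, 8 of 8 in each. Of the Stat5 target genes other than the members, 1 of 20 was above 1.5 and 4 below 0.6 in HSCs, with a median log2 ratio of -0.26, and 1 of 18 was above and 2 below in CD41low/CD9low HSCs, with a median of 0.02. Bcl6, a repressor that Stat5 is known to silence, was above 1.5 in both populations, with ratios of 2.46 (2.06 to 2.94) and 1.66 (1.22 to 2.29), but did not pass the test in the fit to all libraries (adjusted p = 0.338 in edgeR). The 4 below 0.6 in HSCs were Mcl1, Id1, Cd69 and Gzmb, with ratios of 0.583, 0.229, 0.363 and 0.558. The ratio of Gzmb rests on 42 and 19 counts, with an interval of 0.307 to 0.981. In CD41low/CD9low HSCs the 2 below 0.6 were Ccnd1 and Cdkn1a, at 0.572 and 0.121. That of Cdkn1a rests on 33 and 6 counts, with an interval of 0.0415 to 0.293. Ccnd1 and Cd69 were called lower in the fit to all libraries, with log2 values of -0.75 and -1.04 and adjusted p-values of 0.000915 and 0.0213 in edgeR, which were 0.0777 and 0.26 with the filterByExpr filter. Pim1, a survival kinase, was at 193 and 119 CPM in WT and KO HSCs and at 237 and 240 CPM in CD41low/CD9low HSCs. For Bcl2l1, which encodes the survival protein Bcl-xL, the ratios were 0.896 (0.845 to 0.95) and 1.35 (1.2 to 1.53).

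**Figure D4:**
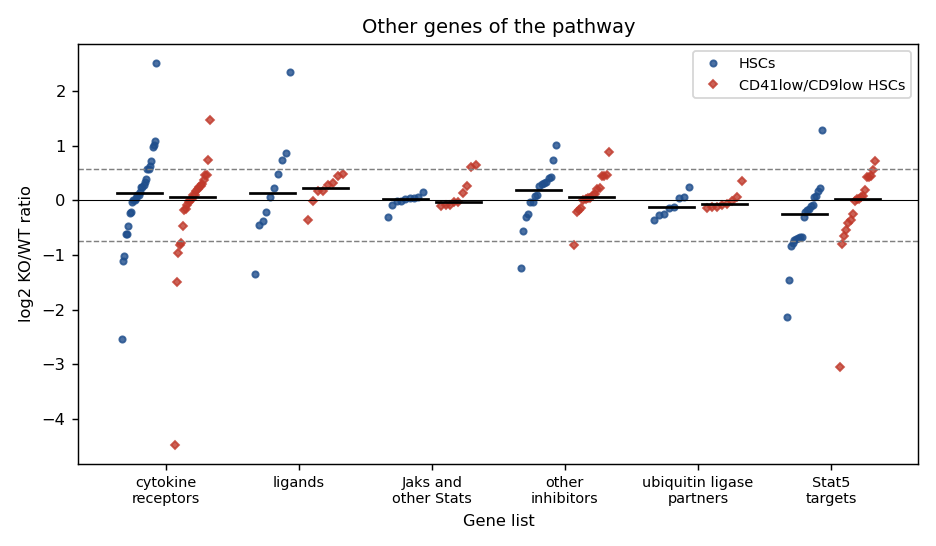
log2 KO/WT ratio of each gene of 6 pathway lists in HSCs (circles) and CD41low/CD9low HSCs (diamonds), with black bars for medians and dashed lines at ratios of 1.5 and 0.6. Genes counted 0 times in a library are left out, and the medians run from -0.26 for Stat5 targets in HSCs to 0.23 for ligands in CD41low/CD9low HSCs.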

How the data were processed

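The authors prepared stranded mRNA libraries (TruSeq), aligned reads to mm10 with TopHat2 2.0.10, processed them with SAMtools and counted them per Ensembl gene with HTSeq. The deposited values are these raw counts, without normalization. The HTSeq version, strand setting and annotation release are not given in the sources used here. HSC and CD41low/CD9low HSC libraries list different gene sets, and comparisons across them used the 37140 genes in common. Lines for unassigned reads were left out. For every 100 counts on genes, reads without a feature numbered 80.0 and 105.3 for WT and KO HSCs, against 62.0 and 60.1 for the CD41low/CD9low pair.

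KO/WT ratios were computed on each pair after median-of-ratios scaling, the normalization of the DESeq package named by the authors, without a pseudocount, and a gene needed 10 counts or more in 1 of the libraries. The exact (Clopper-Pearson) 95% interval of the KO share of the counts was carried over to the ratio. CPM values are relative to the total count on genes. Cutoffs of 1.5 and 0.6 are those of the study. The test over both populations was edgeR 4.0.16 (quasi-likelihood, TMM, Benjamini-Hochberg adjustment over all genes, population as covariate), with DESeq2 1.42.0 as alternative, in R 4.3.3 and Python 3.11.15. Methods were tested on simulated data. Coordinates and exon lengths came from GENCODE M21 (GRCm38), and promoter sequences from RefSeq (GRCm38.p6). The members, gene lists and naming rule were chosen with earlier results of these data known. The rule named all members, Jak2, Stat3, Pim1, Bcl2l1 and 1 gene not reported here, up to 4 genes per list past the same cutoff in both populations with at least 50 counts in each pair, and the 3 closest profiles for the 2 members of widest range. Lists covered receptors, ligands, kinases, inhibitors, ligase partners, Stat5 targets and markers of HSCs and other cells. Megakaryocyte, lymphoid and mast cell markers summed to 492.1 to 1807, 31.01 to 173.4 and 3.922 to 39.91 CPM per library.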

Additional observations from a re-analysis of the deposited data

Results flagged for a closer look

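Socs3 was the member whose KO/WT ratio lay on opposite sides of 1 in the populations, beyond the counting interval of each. On the log2 scale, the ratio of the CD41low/CD9low gate exceeded the ratio of HSCs by 3.36, from 35 and 95 counts in the former and 1304 and 186 counts in the latter. The difference was not tested, since each ratio comes from 1 library per genotype. The share of all genes with such a contrast was not computed. Outside the members, the receptors Csf2rb2 and Epor also had intervals on opposite sides of 1.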

How the results depend on the processing

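The ratios of all 10 members in both populations stayed within their counting intervals under TMM scaling, scaling by total count, size factors over all 4 libraries and a pseudocount of 1. The members past the cutoffs numbered 3 in HSCs and 1 in CD41low/CD9low HSCs under these settings, with other filters on low counts, and with 1/1.5 as the lower cutoff. A correction for exon length, by the running median of 500 genes of similar length, was added after seeing the data. It moved 6 ratios in HSCs out of their intervals (Socs2 1.45, Socs4 1.34, Socs6 1.01, Socs7 1.03, Stat5a 0.741 and Stat5b 1.02) and left 2 members past the cutoffs there, and it was the setting under which Socs2 was no longer above 1.5. Over all genes, 3887 and 3786 genes were past the cutoffs in HSCs and CD41low/CD9low HSCs, and 2223 and 1684 with at least 50 counts required, when fewer genes were tested. The fit to all 4 libraries called 457 genes, and 100 with DESeq2, 240 with median-of-ratios scaling, 128 with at least 50 counts required and 64 with the filterByExpr filter. The prior degrees of freedom were infinite in the first, 30.6 with median-of-ratios scaling, 14 with at least 50 counts and 10.3 with filterByExpr. Of the 6 pathway genes called, Dok2 passed under all 6 settings, Ccnd1 under 5, Il21r under 4, Cbl under 3, and Csf2rb and Cd69 under 2. The fit called 0 members under all 6 settings, with lowest adjusted p-values from 0.251 to 0.747. No paired analysis was possible because the labels number no replicates. Leaving out a library was not run as a test, since it leaves no residual degree of freedom in that fit. At 35 counts, the precision of Socs3 in WT CD41low/CD9low HSCs limits its ratio there.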
